A study of Mus musculus with 4 samples.

Results

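Mag, Mog, Opalin, Cnp and Hapln2 are genes of central nervous system myelin whose proteins lie outside the compacted sheath, on its inner and outer faces, in its cytoplasmic loops and at the node of Ranvier. They were taken by symbol from the authors' deposited table, where each of the 5 had 1 row, and they are 5 of the 369 genes that this table names singly. The data are 4 expression arrays, each run on total RNA from the spinal cord of 1 biological replicate, taken from mice 14 days after birth on a c57.129 mixed background. The 2 Sip1 cKO samples were Sip1 c/c;Olig1-Cre, with both copies of Sip1 (now Zeb2, a zinc finger transcription factor) floxed. The 2 control samples were Sip1 c/+;Olig1-Cre littermates. Both groups therefore carried the Cre, a recombinase driven from Olig1, a gene of the oligodendrocyte lineage, and the controls also had 1 floxed copy, so no sample was free of Cre. The RNA came from all cells of the cord, among them cell types in which Olig1 is not active. The labels do not say how many animals made up a replicate.

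Oligodendrocytes wrap axons in a membrane sheath, most of which is pressed into compact myelin. The innermost turn facing the axon (the adaxonal membrane), the outermost turn, the paranodal loops at the sheath's edges and the channels between compact zones keep their cytoplasm and carry proteins of their own. At the gap between neighbouring sheaths, the node of Ranvier, a hyaluronan matrix surrounds the axon. Mag, a sialic acid-binding adhesion molecule, sits on the adaxonal membrane, and Mog, an immunoglobulin-like glycoprotein, on the outermost surface. Opalin is a glycoprotein of the paranodal and inner loops. Cnp, a phosphodiesterase of cyclic nucleotides, helps to keep cytoplasmic channels within myelin from closing, and Hapln2 is a link protein that ties proteoglycans to hyaluronan at nodes.

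The regions around the start sites of the 5 genes are shown because each holds a short stretch of letters of the kind bound by Myrf, the transcription factor that turns on myelin genes. The sequences are from RefSeq, build GRCm38.p6, and run 5′ to 3′ on the strand that reads CTGGCAC or CTGGTAC, which is in capitals, with 6 bases on either side.
Mag, chr7:30914919-30914937, minus strand: cggcccCTGGCACccaggg
Mog, chr17:37023469-37023487, plus strand: ggctgcCTGGTACtgggca
Opalin, chr19:41077065-41077083, plus strand: ctctcaCTGGCACtgcagg
Cnp, chr11:100574852-100574870, plus strand: tgcttcCTGGCACtcaggt
Hapln2, chr3:88027643-88027661, plus strand: gacaggCTGGCACaaacca
These are matches of letters, not measured binding, and their frequency in other genes is given with the longer sequences after the expression results.

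Each array gave a log2 value, made by the authors with RMA, for each of 35557 transcript clusters, sets of probes that are summarised together. The median of an array lay between 6.62 and 6.70 with 1.71 as the lowest value. Zeb2, the targeted gene, read 8.61 and 8.66 in Sip1 cKO cords, against 10.29 and 10.47 in control cords, a log2 change of -1.75 (limma, adjusted p = 0.0144). Where its probes lie relative to the deleted part of the gene is not known here, so this is a limited check of the labels. Each group had only 2 arrays. The limma fit pooled each cluster's variance over both groups and drew it towards a value estimated from all 35557 clusters. The standard errors, intervals and p-values below rest on that shared value too. In whole cord, fewer oligodendrocytes and less RNA per oligodendrocyte cannot be told apart. Markers of neurons, astrocytes, microglia, oligodendrocyte progenitors and endothelium were not among the named genes and were not analysed here. Of 5 markers of mature oligodendrocytes 4 were named, Mobp, Cldn11, Mal and Myrf, and all 4 fell in Sip1 cKO, as did 55.3% of the 369 named genes. The authors' table had been chosen for a minimum fold on these arrays, so a named marker had to differ between the groups.

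The comparison of Sip1 cKO with control asked how gene expression in the cord differs without Sip1 in the lineage. Of the 5 genes 4 fell, Mog, Mag, Opalin and Cnp, where a fall means a Benjamini-Hochberg adjusted p under 0.05 in a limma fit of the whole array, and Hapln2 missed that threshold. Lower calls made up 0.858% of all clusters but 55.3% of the 369 singly named genes. The deposited table had been chosen by the authors for a minimum fold on these same arrays, so each of the 5 genes had to differ between the groups. Their median log2 change was -5.40, against -1.29 over the named genes and -0.01 over all clusters. For all 5 genes both Sip1 cKO arrays lay below both control arrays, as did 25.1% of all clusters and 97.8% of the named genes.

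Mog, on the outer face of the sheath, read 5.74 and 7.35 in Sip1 cKO cords, against 12.81 and 12.93 in control cords. The control arrays nearly coincided, the Sip1 cKO arrays lay far apart, and both were far below control. The group means were 6.55 ± 1.14 in Sip1 cKO and 12.87 ± 0.09 in control (SD, n = 2 each). The log2 change was -6.32 with a standard error of 0.53 and a 95% interval from -7.73 to -4.92, so that 1.25% of the control signal was left on a linear scale (limma, adjusted p = 0.0271). This was the most negative change of all 35557 clusters. On the Sip1 cKO arrays Mog stood above 34.7% and 60.2% of clusters. Without a detection call, how much of that signal lies above background is not known.

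Mag, on the face towards the axon, read 6.54 and 7.92 in Sip1 cKO cords, against 12.78 and 12.90 in control cords. As with Mog, Sip1 cKO replicate 1 was the lower of the mutant arrays, and the groups did not overlap. The means were 7.23 ± 0.98 in Sip1 cKO and 12.84 ± 0.09 in control (SD, n = 2 each). The log2 change of -5.61 (standard error 0.46, 95% interval from -6.83 to -4.40, adjusted p = 0.0269) left 2.05% of the control signal and ranked 3rd from the most negative over all clusters. Mag stood above 48.1% and 67.9% of clusters on the Sip1 cKO arrays, and the same limit on background applies.

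Opalin, of the paranodal and inner loops, read 4.52 and 4.45 in Sip1 cKO cords, against 9.91 and 9.85 in control cords. Replicates differed by 0.07 on the log2 scale in each group. The log2 change of -5.40 had a standard error of 0.10 and a 95% interval from -5.65 to -5.15 (adjusted p = 0.00256), with 2.38% of the control signal left. On the Sip1 cKO arrays Opalin stood above only 16.0% and 15.2% of clusters, against 90.4% and 89.7% on the control arrays. No detection call was used, so whether its mutant signal lies above background is not known. In the authors' deposited table the fold for Opalin was 25.6, against 42.1 from the array values. For the other 4 genes the authors' table gave 85.6% to 99.5% of the fold computed here.

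Cnp, of the cytoplasm-filled compartments, read 10.11 and 10.33 in Sip1 cKO cords, against 13.03 and 13.09 in control cords. The groups lay 2.69 apart at their closest, while replicates differed by 0.22 in Sip1 cKO and by 0.07 in control. The log2 change was -2.84 (standard error 0.12, 95% interval from -3.15 to -2.53, adjusted p = 0.00691), a 7.15-fold lower signal. Cnp still stood above 91.7% and 93.2% of clusters on the Sip1 cKO arrays, against 99.7% on each control array.

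Hapln2, of the nodal matrix, read 6.42 and 6.16 in Sip1 cKO cords, against 8.70 and 9.75 in control cords. Here the spread lay in the control arrays, 1.06 apart, while the Sip1 cKO arrays differed by 0.26. Its log2 change of -2.94 was close to that of Cnp, but with a standard error of 0.37 and a 95% interval from -3.90 to -1.97 it missed the threshold (adjusted p = 0.0563). The call depended on the fit: the adjusted p was 0.0308 with an eBayes trend, 0.0441 with array weights and 0.0081 without the 6614 lowest identifiers. Those identifiers form an unbroken run of numbers, with no row in the authors' table. Hapln2 missed the threshold with a second quantile normalization (limma, adjusted p = 0.0566) and with median centring (0.0639). It also missed with identical rows tested once (0.063) and with replicate number as a further term (0.107). Hapln2 was the only gene named of 20 on the list of nodal and perinodal matrix genes, so its neighbours at the node, such as Bcan, Vcan and Tnr, were not analysed here.

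**Figure D1:**
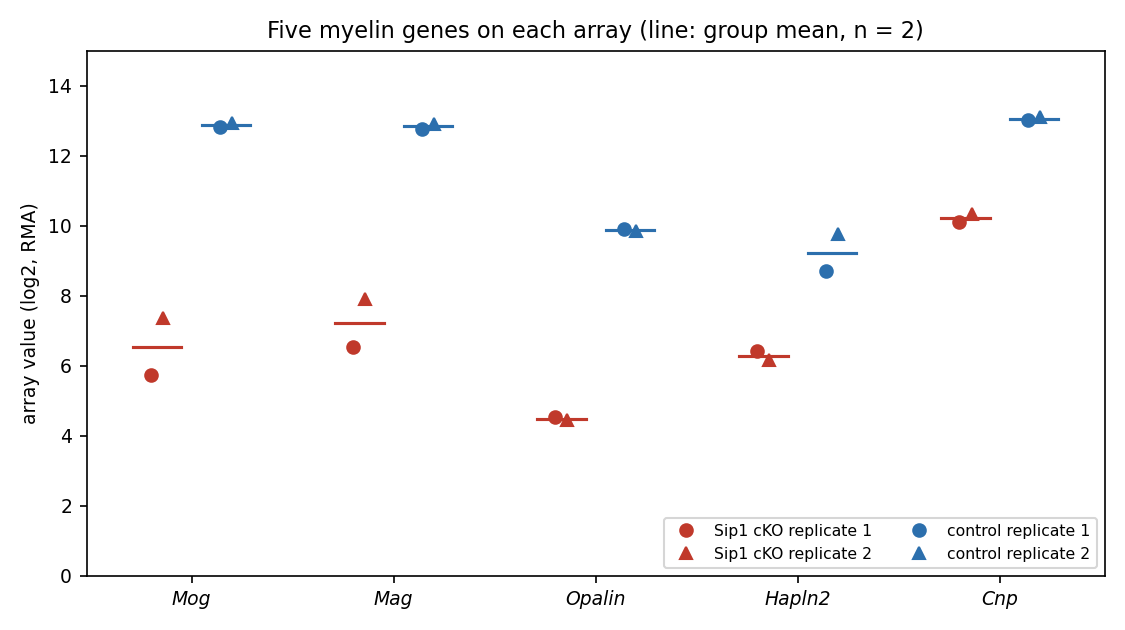
Log2 array values of Mog, Mag, Opalin, Hapln2 and Cnp in Sip1 cKO cords (red, left of each pair) and control cords (blue, right), with circles for replicate 1, triangles for replicate 2 and lines at the group means (n = 2). The Sip1 cKO arrays lie below the control arrays for all 5 genes, with wide gaps between mutant replicates for Mog and Mag and between control replicates for Hapln2.

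The calls of the whole array, these 4 among them, were lost when 1 control array was left out. The error then came from the Sip1 cKO pair alone. Without control replicate 1 the adjusted p was 0.118 for Mag, 0.122 for Mog, 0.0557 for Opalin and 0.0601 for Cnp, and without control replicate 2 it was between 0.0718 (Opalin) and 0.126 (Mog). Without either control array 0 of 35557 clusters passed by limma, the only tool run, and so 0 of the 5 genes. The unadjusted p was under 0.05 for 5 of the 5 genes in both fits, as it was for 15.6% of clusters without control replicate 1 and 18.6% without control replicate 2. Mag, Mog, Opalin and Cnp passed without Sip1 cKO replicate 1, when 58 clusters did, and without Sip1 cKO replicate 2, when 60 did, against 383 with all arrays. The sizes changed little for Opalin, from -5.43 to -5.36 over the fits that left out 1 array, and more for Mog, from -7.12 to -5.52.

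The mutant arrays did not differ in the same way for all 5 genes. Sip1 cKO replicate 2 exceeded replicate 1 by 1.61 for Mog and by 1.38 for Mag, but by 0.22 for Cnp, and it was lower by 0.07 for Opalin and by 0.26 for Hapln2. Opalin stood above only 16.0% and 15.2% of clusters on these arrays. Whether a signal that low could show such a gap was not tested. The median absolute gap between these arrays was 0.11 over all clusters, and the gap of Mog exceeded that of 99.9% of clusters. Of the 369 named genes 4 were higher by at least 1 in Sip1 cKO replicate 2, namely Cldn11, Mog, Mag and Mobp, and 0 were higher by that much in replicate 1. Over all clusters the balance was the other way, with 132 higher by at least 1 in replicate 2 and 245 in replicate 1. Cldn11 (gap 1.61) forms the tight junctions between myelin layers and Mobp (gap 1.34) is a basic protein of compact myelin. These 4 genes also had the 4 largest decreases of the named genes, and on control arrays they differed between replicates by 0.12 or less. What else differs between the mutant cords was not tested.

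**Figure D2:**
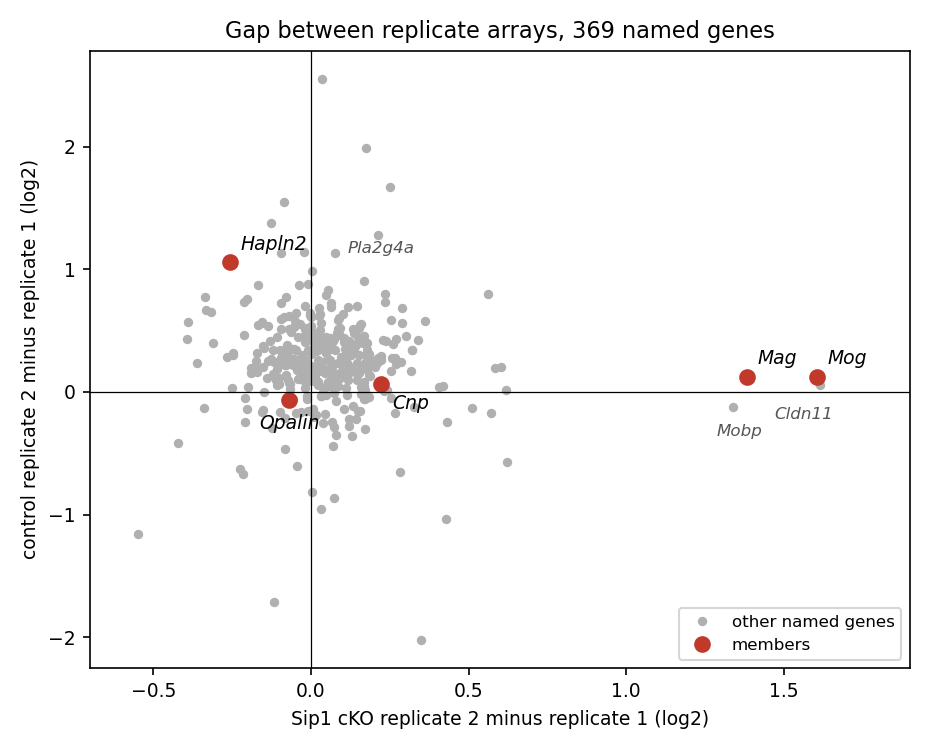
Each point is 1 of 369 named genes, with the log2 gap between Sip1 cKO replicates (2 minus 1) on the horizontal axis and that between control replicates on the vertical axis. Mag and Mog stand to the right with Cldn11 and Mobp, Hapln2 stands 1.06 above 0 on the control axis, and Opalin and Cnp lie in the cloud of other genes.

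The sizes of the decreases were compared between the 5 genes in 10 pairs, as a description. Each of Mag, Mog and Opalin dropped more than each of Cnp and Hapln2 in all 4 pairings of a Sip1 cKO array with a control array. These genes were set against each other after their values were seen, and changes of other named genes, such as Mal at -4.81, Anln at -4.04 and Myrf at -3.38, lay between theirs. The difference between the log2 changes was -3.48 for Mog against Cnp, with -4.20 to -2.76 over the pairings. It was -2.56 for Opalin against Cnp, with -2.77 to -2.34. Mag and Mog also kept their order, Mog being lower by a further 0.60 to 0.82 in every pairing. The sign changed over the pairings for the other 3 pairs. The difference ran from -1.04 to 0.60 for Mag minus Opalin, from -1.86 to 0.01 for Mog minus Opalin, negative in 3 of 4 pairings, and from -0.64 to 0.83 for Cnp minus Hapln2. With 2 arrays against 2 an exact permutation test cannot give a two-sided p under 0.3333, which was also the p of the 7 pairs of 10 that kept 1 sign (0.476 after Benjamini-Hochberg adjustment). Probes of different genes may respond differently to the same change in RNA, so these sizes compare readings and not transcripts per cell.

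Other named genes of the same compartments were also lower. Of 35 genes on the list of non-compact myelin and axon-glia contact 15 were named, 14 of them fell and 1 did not pass, Septin8 at -0.84 (adjusted p = 0.0782). For the 15 together the median was -2.84 on the log2 scale. Leaving aside Mag, Mog, Opalin and Cnp, 10 of 11 fell. Ermn, a cytoskeletal protein of the sheath, read 5.69 and 5.30 in Sip1 cKO cords, against 10.69 and 11.26 in control cords, a log2 change of -5.48 (adjusted p = 0.00691). Anln, an actin and septin-binding scaffold protein, read 5.35 and 5.58 in Sip1 cKO cords, against 9.35 and 9.65 in control cords, a change of -4.04. Gjb1, a connexin of oligodendrocyte gap junctions, had a log2 change of -2.90, and Sirt2, a deacetylase of non-compact myelin, of -1.95. The smallest decrease that passed was that of Septin4, a filament protein, at -0.91. All these names came from the authors' table, so each gene had passed its minimum fold on these arrays. Of the 369 named genes 55.3% were called lower, against 0.858% of all clusters.

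Among compact myelin and tight junction genes 8 of 14 were named, 6 fell and 2 did not pass, among them Tmem98 at -1.27 (adjusted p = 0.0865), with a median log2 change of -3.28. Mal, a proteolipid, had a log2 change of -4.81, Tspan2, a tetraspanin, of -3.78, and Pllp, plasmolipin, of -2.78. The steep decreases were thus found in both compartments, Mobp at -5.80 and Cldn11 at -5.55 beside Mog at -6.32 and Mag at -5.61. All 8 regulators known to act on myelin genes were named, the deleted Zeb2 among them, 7 fell and 1 did not pass, Olig1 at -0.92 (adjusted p = 0.179), with a median of -1.61. Myrf read 7.21 and 7.11 in Sip1 cKO cords, against 10.36 and 10.71 in control cords, a change of -3.38. The mutant values of Myrf differed by 0.10, without the gap seen for Mag and Mog. Sox10, a factor of the whole lineage, was 4.34-fold lower and Nkx6-2, a homeobox factor, 3.25-fold lower in Sip1 cKO. The genes of both lists were also named through the authors' table, so each had passed its minimum fold. Of the 369 named genes 55.3% were called lower, against 0.858% of all clusters. None of 7 genes on the list of receptors of myelin inhibitors was named, and they were not analysed here.

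**Figure D3:**
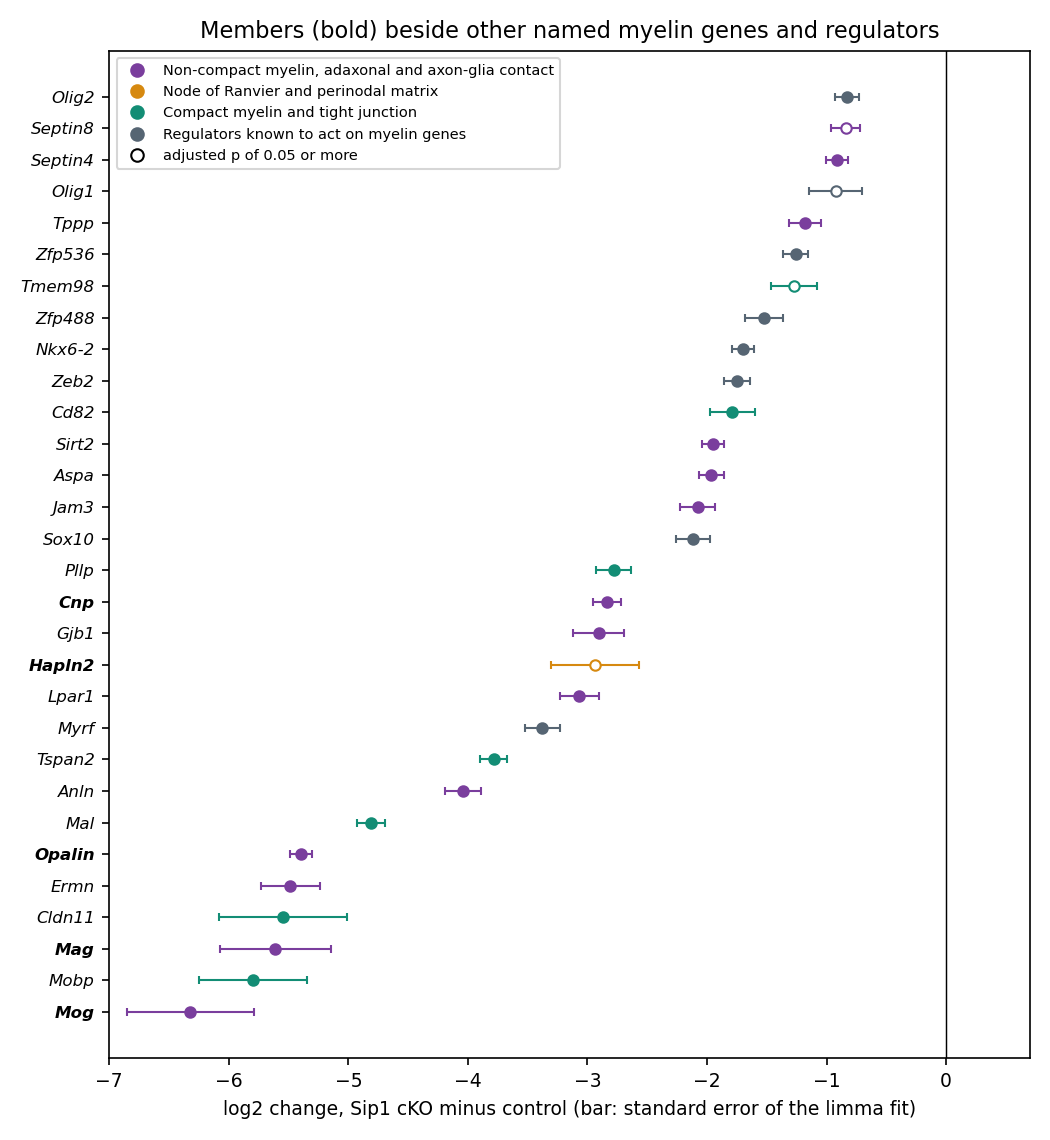
Log2 change (Sip1 cKO minus control, with the standard error of the limma fit) of the 5 genes (bold) and other named genes of 4 lists, coloured by list, with open circles where the adjusted p was 0.05 or more. Mog, Mobp, Mag, Cldn11, Ermn and Opalin lie below -5, while Cnp and Hapln2 lie near -3.

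The genes most like each member were sought by the Euclidean distance between array values after removing each gene's mean over the 4 arrays. Mag lay nearest to Cldn11 (distance 0.18 on the log2 scale), then Mobp (0.26) and Mog (0.73). Mog lay nearest to Mobp (0.58), then Mag (0.73) and Cldn11 (0.77). The matches of Mag and of Mog were thus drawn from the same 4 genes, those with the wide gap between mutant arrays. The distance takes in the size of the change and that gap, both reported above, so this is no separate finding. Opalin lay nearest to Ermn (0.51), then Mal (0.62) and Klk6, a secreted serine protease (0.69). Cnp was matched closely by Pllp (0.13), by Ppp1r14a, an inhibitor of myosin phosphatase (0.14), and by Elovl1, which elongates very long chain fatty acids (0.15). Hapln2 lay nearest to Pla2g4a, a phospholipase (0.26), then Rab7b, a small GTPase (0.30), and Mob3b, a kinase adaptor (0.37). Pla2g4a read 5.71 and 5.79 in Sip1 cKO cords, against 8.03 and 9.16 in control cords, and so shared with Hapln2 the wide gap between control arrays. With 4 arrays such likeness rests on very few points.

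The letters in the start regions were searched on both strands from 250 bases before to 50 after each RefSeq start site. At least 1 start region of all 5 genes held CTGGCAC or CTGGTAC, against 8.10% of 27025 genes with such a sequence and 11.3% of the 283 named genes that could be matched. CTGGCAC was found for Mag, Opalin, Cnp and Hapln2, against 5.73% of genes, and CTGGTAC for Mog, against 2.60%. Counted from the start site as 0, the match began at -9 in Mag, at -83 in Mog, at -81 in Cnp and at -144 in Hapln2, and lay after the start, at 36 to 42, in Opalin. CACCTG, the E-box bound by Zeb2, stood before the start of Cnp and of the innermost of the 3 starts of Mag, against 22.6% of genes. Its shorter core CACCT, which each CACCTG contains, was present in the same genes, against 55.2% of genes. It was also found apart from CACCTG, at -161 to -157 in Cnp and at 21 to 25 from another start of Mag. Letters of the Sox type were present as ACAAAG in Mag, Opalin and Cnp (21.0% of genes) and as AACAAT in Hapln2 (12.2%). The general E-box CANNTG, which takes in CACCTG, was found in all but Mog (74.99% of genes). No test was made, and none of these matches is a measured site of binding.

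The stretches before the outermost starts of Mag, Mog and Cnp are shown in full, the first pair because they shared the mutant gap and Cnp because it alone held CACCTG before its only listed start. They run 5′ to 3′ on the gene's strand in GRCm38.p6, with matches of the Myrf type and to CACCTG on either strand in capitals. That of Cnp stops at the outer end of the gene, 220 bases long, and the others hold 250. The Cnp start site from which positions are counted lies beyond its printed stretch, at chr11:100574939.
Mag, chr7:30914923-30915172, minus strand: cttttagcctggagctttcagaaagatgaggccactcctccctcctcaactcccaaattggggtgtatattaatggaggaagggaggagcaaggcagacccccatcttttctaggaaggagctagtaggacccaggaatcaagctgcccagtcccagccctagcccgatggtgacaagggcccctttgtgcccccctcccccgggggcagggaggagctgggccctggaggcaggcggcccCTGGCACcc
Mog, chr17:37023399-37023648, minus strand: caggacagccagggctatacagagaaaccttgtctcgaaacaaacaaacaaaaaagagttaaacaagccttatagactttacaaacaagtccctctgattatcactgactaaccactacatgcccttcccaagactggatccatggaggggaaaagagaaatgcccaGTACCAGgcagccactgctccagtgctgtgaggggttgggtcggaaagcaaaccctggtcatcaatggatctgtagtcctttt
Cnp, chr11:100574689-100574908, plus strand: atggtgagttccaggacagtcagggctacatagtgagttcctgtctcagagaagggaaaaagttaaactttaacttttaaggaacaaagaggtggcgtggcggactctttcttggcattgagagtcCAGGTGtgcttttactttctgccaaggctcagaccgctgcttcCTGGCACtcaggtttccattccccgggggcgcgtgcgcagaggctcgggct
The Mog sequence holds its only match of the set, read on the other strand as GTACCAG, and the Cnp sequence holds both a CACCTG, read as CAGGTG, and a CTGGCAC.

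**Figure D4:**
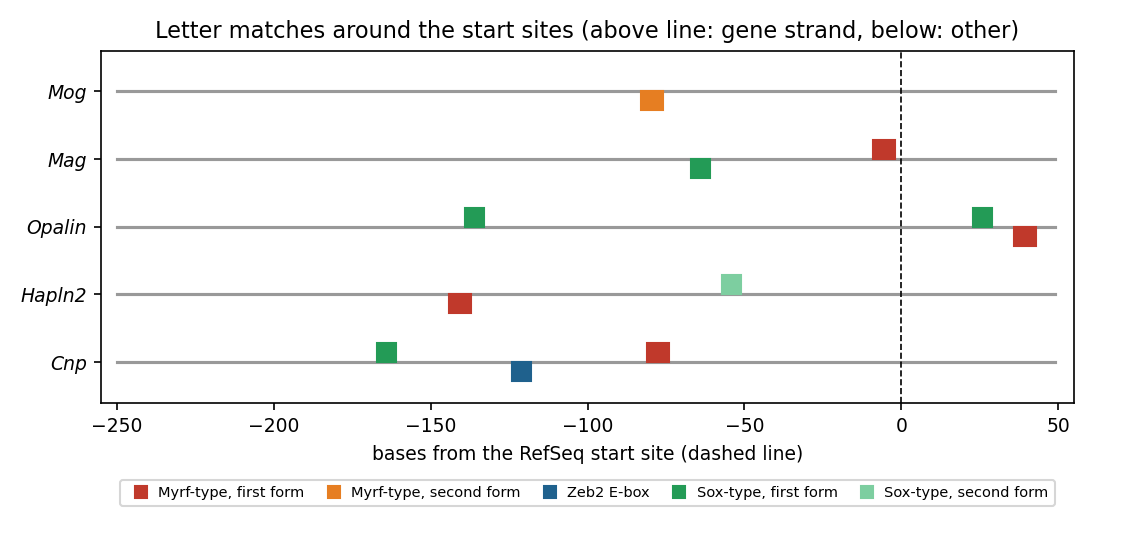
Positions of letter matches within the searched window around the RefSeq start site (dashed line) of Mog, Mag, Opalin, Hapln2 and Cnp, drawn above the line on the gene's strand and below it on the other. A Myrf-type match is present in each of the 5 genes, while the Zeb2 E-box is drawn for Cnp alone, since Mag is drawn at its outermost start.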

How the data were processed

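The authors' deposited array values, 1 column per array (MoGene-1_0-st-v1, per the file headers), were taken as log2 from their range. The submitters' processing notes name RMA, which equalises the arrays and would hide a change common to most genes. A second deposited table lists 420 clusters that passed a filter on raw expression and a minimum fold (per the file headers, the higher group mean over the lower). It calls a cluster up where control was higher, and signs here are Sip1 cKO minus control. Clusters were named only through this table (375 with 1 symbol, 369 genes, symbols updated through GRCm38.p6), a gene's brightest cluster standing for it. For RMA no version, and for the array no annotation or genome build, is given in the sources.

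The group difference was fitted for all 35557 clusters by lmFit and eBayes of limma 3.58.1 (R 4.3.3; two-sided, group as the only term, no filter), with Benjamini-Hochberg adjustment over all clusters. The procedure was tested on simulated data. Their errors were drawn from the variance model of the same fit, with equal spread in both groups. The test therefore does not cover genes such as Mog and Mag, whose spread differed between the groups. The 5 genes, the gene lists and the motifs were chosen with earlier results of these data known. Genes named were the 5 members, Zeb2, the 3 nearest genes of each member and up to 4 genes per list with the smallest p. Others named to describe a list (Gjb1, Sirt2, Septin4, Septin8, Cldn11, Tmem98, Olig1) were chosen after their values were seen. Some genes counted in the lists are not reported here by name or drawn. Promoter sequences came from RefSeq tables.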

Additional observations from a re-analysis of the deposited data

How the results depend on the processing

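The 5 changes kept their direction in every fit run. Leaving out an array could not have reversed it, since both Sip1 cKO arrays lay below both control arrays for each gene. The closest distance between the groups was 2.28, for Hapln2. The 4 calls held in each fit that used all 4 arrays. Hapln2 passed, with the same change of -2.94, with the dim filter (adjusted p = 0.0154), an eBayes trend (0.0308), a robust trend (0.0366), array weights (0.0441), without the lowest identifiers (0.0081) and at an adjusted p under 0.1, and it did not with a second quantile normalization, median centring or identical rows tested once (476 repeats removed). The clusters that passed, 383 with 305 lower, numbered 894 (650 lower) with the dim filter, 603 (487) with the trend, 818 (600) without the lowest identifiers and 712 (553) at an adjusted p under 0.1. The labels do not say whether same-numbered arrays of the 2 groups belong together. The deviations of same-numbered arrays had r = 0.0764, which cannot decide this with 2 arrays per group. With the replicate block 111 clusters passed, 110 lower, and the 4 genes still did (adjusted p from 0.0290 to 0.0489), with Hapln2 at 0.107. Leaving out 1 array gave 0 to 4 of the 5 genes, 0 to 60 clusters (0 to 59 lower), and changes from -6.30 to -4.92 for Mag, -7.12 to -5.52 for Mog, -5.43 to -5.36 for Opalin, -2.95 to -2.73 for Cnp and -3.47 to -2.41 for Hapln2, where the lone array was assumed to vary like the other group. From the authors' deposited table Opalin had -4.68, and the cause was not tested. No member had several rows, so no mean over rows was made. The array signal over background was not measured, which limits the fold of the dimmest values.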
